A study of Mus musculus with 24 samples.

Results

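All mutant arrays of the series were set against all control arrays, with the experiment as a block. The 24 arrays used were all 24 of the series, 12 of mutants and 12 of controls, and every one was assigned by its label. They measured gene expression on Affymetrix mouse Gene ST arrays in the anterior heart field (AHF) of E9.5 embryos that had 19 to 21 somite pairs. The mutants were *Tbx1 LOF* (Mef2c-AHF-Cre/+;Tbx1 f/- or f/f), *β-cat LOF* (Mef2c-AHF-Cre/+;β-catenin f/f) and rescue (*Tbx1 LOF* with 1 floxed allele of β-catenin added), with 4 arrays each. Each of the 3 had 4 control arrays of its own, which by the methods lacked Cre and were *Tbx1* f/+, *β-catenin* f/+ or, for rescue, heterozygous for both floxed alleles. The protocol text of the labels differs, since it lists wild type embryos and littermates with Cre and 1 floxed *Tbx1* allele as controls, and whether the controls carried Cre is not settled here. Each array held RNA of several pooled embryos, 100 ng of which was amplified. The tissue was pharyngeal arches with their ectoderm, endoderm and neural crest, of which the AHF mesoderm is a part, so that fewer cells of a type and less RNA per cell cannot be told apart.

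The AHF is a population of mesodermal progenitors behind the heart tube. It adds cells to the outflow tract and right ventricle, and also gives rise to muscles of the head and neck. *Tbx1* encodes a T-box transcription factor that keeps these progenitors from differentiating early, and β-catenin, encoded by *Ctnnb1*, carries canonical Wnt signals to the nucleus. The Cre of all 3 mutants is a transgene driven by an AHF enhancer of *Mef2c*. By the methods, all mutant groups carried this transgene and no control group did.

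The markers of the labelled tissue were present. *Isl1*, a transcription factor that marks heart progenitors, lay between 10.62 and 10.93 (median 10.80) in mutants and between 10.47 and 10.91 (median 10.80) in controls, on the log2 scale used throughout, and ranked at percentile 83.0 of all genes by mean value. The targeted genes checked the labels in part. *Tbx1* read 10.98, 11.28, 11.43 and 11.40 in *Tbx1 LOF*, against 11.91, 11.77, 11.98 and 11.99 in its controls. In rescue it read 11.39, 11.49, 11.51 and 11.49, against 11.83, 11.95, 11.75 and 11.58 in its controls. Mutants with deleted *Tbx1* thus lay below all of their own controls, while in *β-cat LOF* the gene read 11.66, 11.94, 11.83 and 11.81, against 11.75, 11.51, 11.82 and 11.87, and the groups overlapped. *Ctnnb1* differed by a log2 of −0.04 (SE 0.03) over all 3 experiments and *Mef2c*, whose enhancer drives Cre, by 0.02 (SE 0.05). The mean of *Ctnnb1* was 13.22 in *Tbx1 LOF*, against 13.25, 13.18 in *β-cat LOF*, against 13.20, and 13.13 in rescue, against 13.18. In rescue its mutant arrays lay below all controls, as 2.24% of genes did. How much of the probe sets of the targeted genes lies in deleted exons was not settled, so the value of *Ctnnb1* checks nothing about the labels.

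A single gene passed the test of mutants against controls. In limma, with experiment as a block and Benjamini-Hochberg adjustment over 19938 genes, 1 gene passed as higher (0.00502% of those tested) and 0 as lower. At an unadjusted p under 0.05 there were 375 genes (1.88%), of which 160 (0.802%) were higher and 215 (1.08%) lower in mutants. A fraction of 0.05 would be expected at that p if no gene differed, and 1.88% lies below it. The pooled log2 fold change had a median of −0.00 and lay between −0.55 and 0.50, so that 0 genes reached a fold change of 1.5 in either direction. Over the 19938 genes, the log2 fold changes of *Tbx1 LOF* and *β-cat LOF* had a Pearson correlation of −0.40 (Spearman −0.09). It was −0.22 (−0.21) for *β-cat LOF* and rescue and 0.17 (0.06) for *Tbx1 LOF* and rescue. The log2 fold change had the same sign in all 3 experiments in 4262 genes (21.4%), higher in 1572 (7.88%) and lower in 2690 (13.5%). Only *Aqp7* was also at an unadjusted p under 0.05 in each experiment (0.00502%). All 4 mutant arrays lay above all 4 controls in at least 2 experiments in 22 genes (0.110%) and below them in 24 (0.120%), and in all 3 experiments in 0 genes either way. The share of genes with all mutant arrays of an experiment above its controls was 1.32% for *Tbx1 LOF*, 2.06% for *β-cat LOF* and 0.737% for rescue. The share with all below was 0.973% for *Tbx1 LOF*, 0.787% for *β-cat LOF* and 2.24% for rescue. At an unadjusted p under 0.05, *Tbx1 LOF* and rescue shared 13 higher (0.0652%) and 40 lower genes (0.201%), *Tbx1 LOF* and *β-cat LOF* 10 (0.0502%) and 8 (0.0401%), and *β-cat LOF* and rescue 2 (0.0100%) and 1. In the fit of 6 group means to all 24 arrays, 6 genes (0.0301%) had an adjusted p under 0.05 in *Tbx1 LOF*. There were 0 in *β-cat LOF* and 0 in rescue.

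*Aqp7*, which encodes an aquaglyceroporin that passes water and glycerol and is best known from fat, kidney and testis, was the gene that rose. It read 7.90, 7.65, 7.82 and 7.64 in *Tbx1 LOF*, against 7.10, 6.99, 7.16 and 7.28 in its controls. In *β-cat LOF* it read 7.58, 7.60, 7.57 and 7.71, against 7.58, 7.58, 7.36 and 7.14. In rescue it read 7.64, 7.55, 7.45 and 7.74, against 7.20, 7.39, 7.15 and 7.25. All mutants were above all controls in *Tbx1 LOF* and in rescue, and in *β-cat LOF* the groups overlapped through 2 controls, so that 11 of 12 mutant arrays exceeded every control of their own experiment. How many other genes reach such a count was not counted. Pooled, the difference was a log2 of 0.39 (SE 0.06, 12 mutant and 12 control arrays; limma, adjusted p = 0.0218), a fold of 1.31. With mutant and control labels permuted within each experiment, the two-sided exact permutation test gave p = 2.33e-05 over 343000 arrangements. That p is not adjusted for the choice of *Aqp7* among 19938 genes on the same arrays, so it is no separate support. *Gm4983*, which did not pass in limma, had p = 3.50e-05 in the same permutation test. The separate log2 fold changes were 0.62 in *Tbx1 LOF*, 0.20 in *β-cat LOF* and 0.35 in rescue (SE 0.09 each). A test of the difference between the 3 had an unadjusted p of 0.0105 and an adjusted p of 0.712 in limma. The gene ranked at percentile 31.8 by mean value and had 1 probe set. The call was lost when any of 9 single arrays was left out, *Tbx1 LOF* replicates 2, 3 or 4, *Tbx1* control 1 or 3, *β-cat* control 4, rescue mutant 1 or 4, or rescue control 1, while the pooled log2 fold change stayed between 0.37 and 0.39. It was also lost without the *Tbx1* experiment (0.28) and without the rescue experiment (0.41), with quantile normalization (adjusted p = 0.0514) and with same-numbered arrays as a replicate block (adjusted p = 0.228).

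**Figure D1:**
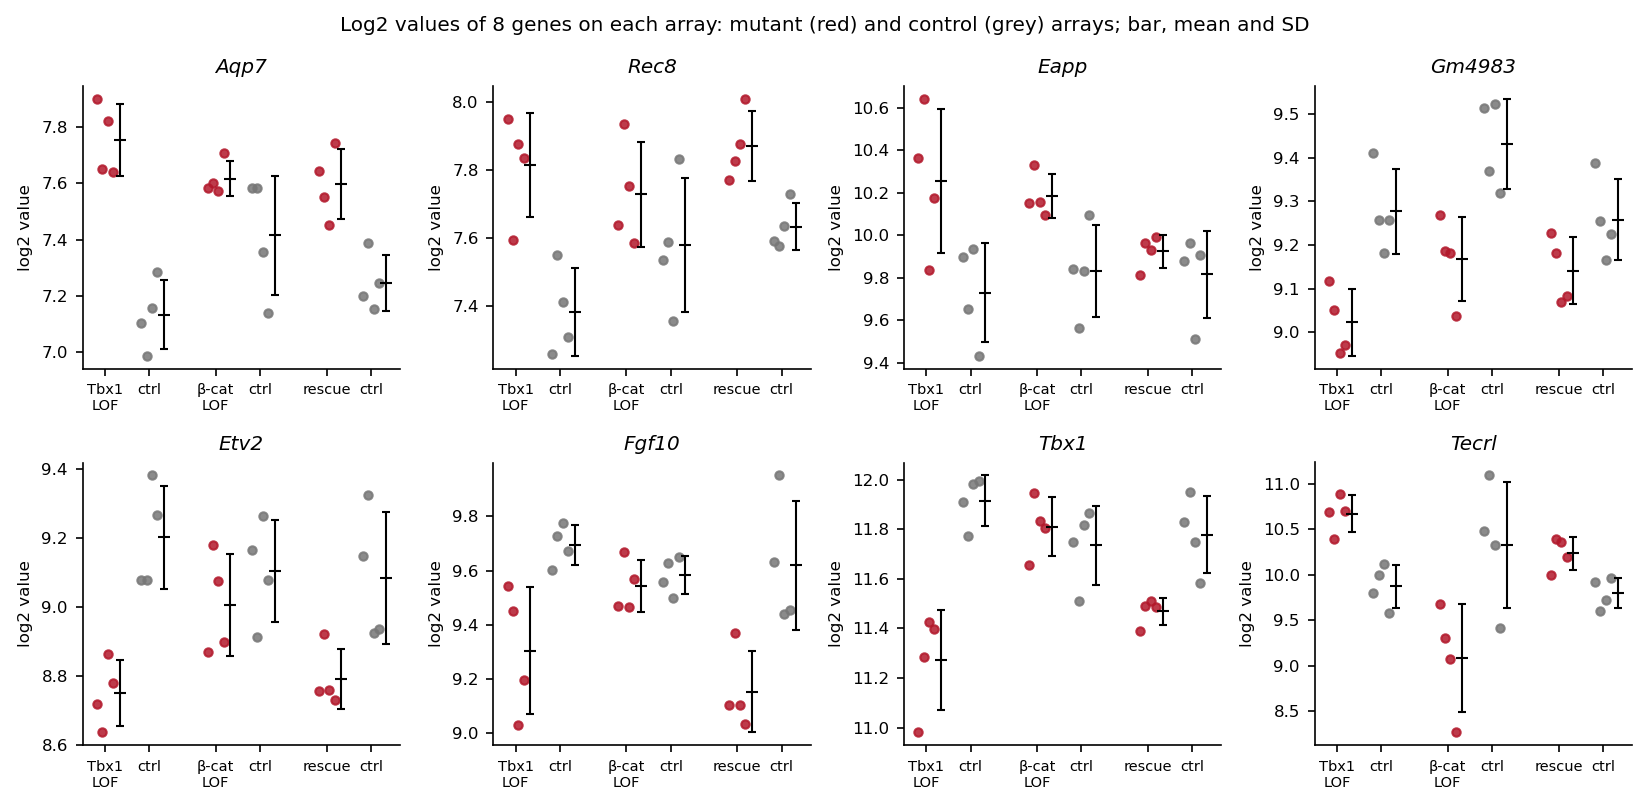
Log2 values of 8 genes on every array, by group on the x axis, with mutant arrays in red to the left of their own control arrays in grey and the mean and SD (n = 4) as a bar. *Aqp7* was above its controls on all *Tbx1 LOF* and rescue arrays, while *Tecrl* was above its controls in *Tbx1 LOF* and rescue and low in *β-cat LOF*.

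The stretch around the start of *Aqp7* is shown because the gene is the one call of the comparison. RefSeq gives it at chr4:41048087-41048386 on the minus strand of GRCm38.p6, from 250 bases before to 50 after the start, and capitals mark the letters of a T-box half-site read on the opposite strand.
Aqp7 promoter: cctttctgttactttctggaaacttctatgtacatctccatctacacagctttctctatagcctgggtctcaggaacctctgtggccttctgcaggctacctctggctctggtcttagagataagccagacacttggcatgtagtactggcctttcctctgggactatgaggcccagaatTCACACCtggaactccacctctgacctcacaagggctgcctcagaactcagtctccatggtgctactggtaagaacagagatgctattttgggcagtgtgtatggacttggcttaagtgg
The letters searched on both strands were GGTGTGA, a T-box half-site, and CTTTGAT, a site of the TCF/LEF factors that β-catenin binds. The first occurred in 3.98% and the second in 3.73% of 32851 RefSeq promoter windows of the same length. Such windows of *Fgf10*, *Sema3c*, *Etv2*, *Hgf*, *Barhl2*, *Eapp* and *Rec8*, searched in the same way, held neither. Whether the half-site of *Aqp7* has a part in its values was not tested.

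The 12 genes named as higher were *Aqp7* and the 11 with the smallest pooled p among genes of the same sign in all 3 experiments, and the 12 named as lower were chosen in the same way. Their p-values thus chose them. *Rec8*, a cohesin subunit of meiosis, read 7.95, 7.59, 7.88 and 7.84 in *Tbx1 LOF*, against 7.26, 7.55, 7.41 and 7.31, and 7.77, 7.83, 7.88 and 8.01 in rescue, against 7.59, 7.58, 7.63 and 7.73. These groups did not overlap. In *β-cat LOF* it read 7.64, 7.94, 7.75 and 7.58, against 7.54, 7.59, 7.36 and 7.83, with overlap, and the pooled log2 fold change was 0.27 (SE 0.06; limma, adjusted p = 0.330). *Wee2*, a kinase of the oocyte, differed by 0.21 (SE 0.05; adjusted p = 0.431) and ranked at percentile 7.91 by mean value. *Gstm6*, a glutathione transferase, differed by 0.28 (SE 0.07; adjusted p = 0.848). *Kcnip2*, a subunit of cardiac potassium channels, differed by 0.11 (SE 0.03; limma, adjusted p = 0.9997). The values of *Csta1*, *Mir203* and *Olfr1251* lay in the lowest 3 percent of genes (percentiles 0.492, 2.84 and 1.70). Olfactory receptor genes, which this tissue is not known to use, had 22 of 1027 members higher and 2 lower at an unadjusted p under 0.05, against 160 and 215 of 19938 genes in all. Their median was 0.00 in *Tbx1 LOF*, 0.06 in *β-cat LOF* and −0.02 in rescue, against −0.01, 0.01 and −0.02 over all genes. The same sign in all 3 experiments held in 19.1% of them, against 21.4% of all genes.

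**Figure D2:**
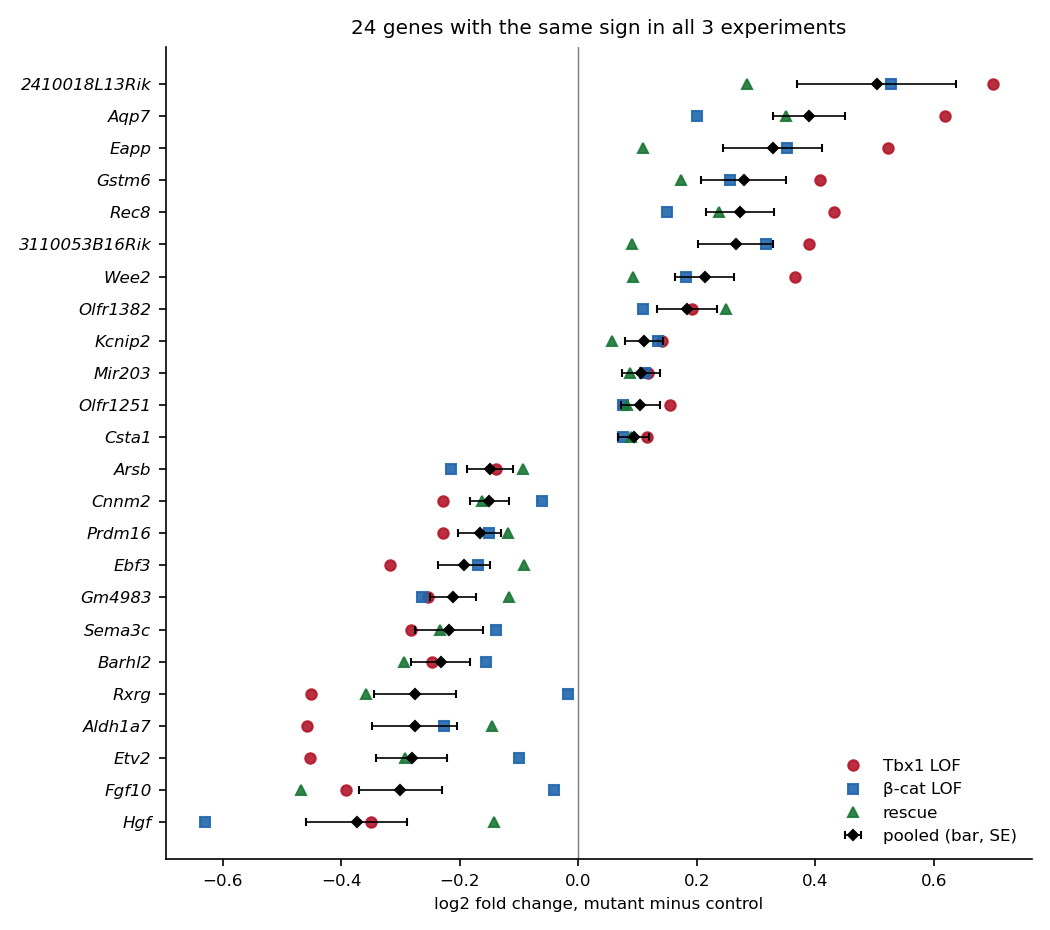
Log2 fold change, mutant minus control (x axis), of the 24 genes named for the same sign in all 3 experiments, with the value in each experiment as a coloured symbol and the pooled value and its SE as a black diamond. Pooled values lay between −0.37 and 0.50, and in *Fgf10* and *Rxrg* the value of *β-cat LOF* was near 0.

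No gene passed as lower. Of the 12 named, 2 are members of the AHF progenitor list, *Fgf10* and *Sema3c*. *Fgf10*, a growth factor made by AHF progenitors, read 9.54, 9.45, 9.03 and 9.19 in *Tbx1 LOF*, against 9.60, 9.73, 9.78 and 9.67. In rescue it read 9.10, 9.37, 9.10 and 9.03, against 9.63, 9.95, 9.44 and 9.46. In both, every mutant array was below every control. In *β-cat LOF* it read 9.47, 9.67, 9.47 and 9.57, against values from 9.498 to 9.65, with overlap. The log2 fold changes were −0.39, −0.47 and −0.04 in the order *Tbx1 LOF*, rescue, *β-cat LOF*, and −0.30 (SE 0.07; limma, adjusted p = 0.431) when pooled. *Sema3c*, a guidance cue of the outflow tract, differed by −0.28 in *Tbx1 LOF*, −0.14 in *β-cat LOF* and −0.23 in rescue, and by −0.22 (SE 0.06; adjusted p = 0.976) when pooled. *Ebf3*, a transcription factor of branchiomeric muscle progenitors, differed by −0.32 in *Tbx1 LOF*, −0.17 in *β-cat LOF* and −0.09 in rescue, and by −0.19 (SE 0.04) when pooled. *Rxrg*, a retinoid receptor, differed by −0.45 in *Tbx1 LOF*, −0.02 in *β-cat LOF* and −0.36 in rescue.

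*Hgf*, the ligand of the Met receptor, read 8.20, 8.12, 7.94 and 8.26 in *Tbx1 LOF*, against 8.66, 8.36, 8.50 and 8.41. In *β-cat LOF* it read 8.21, 8.38, 8.41 and 7.87, against 8.81, 8.54, 8.99 and 9.06. Both sets of mutant arrays were below all their controls, while in rescue 8.27, 8.24, 8.07 and 8.23 overlapped 8.80, 8.30, 8.06 and 8.23. Its pooled log2 fold change was −0.37 (SE 0.09; limma, adjusted p = 0.420). *Etv2*, a transcription factor of early endothelial and blood progenitors, read 8.72, 8.64, 8.86 and 8.78 in *Tbx1 LOF*, against 9.08, 9.08, 9.38 and 9.27, and 8.76, 8.92, 8.76 and 8.73 in rescue, against 9.15, 9.32, 8.92 and 8.93. It did not overlap there and overlapped in *β-cat LOF*, and pooled it differed by −0.28 (SE 0.06; adjusted p = 0.330). *Prdm16*, a transcriptional regulator, and *Barhl2*, a homeobox gene of the nervous system, differed by −0.17 (SE 0.04) and −0.23 (SE 0.05). *Cnnm2*, a magnesium transporter gene, differed by −0.15 (SE 0.03; limma, adjusted p = 0.330). *Aldh1a7* differed by −0.28 (SE 0.07) and the neighbouring *Aldh1a1*, which makes retinoic acid, by −0.32 (SE 0.09). Probes of these near-identical paralogs may cross-hybridize, so that which of them differed is uncertain, and *Aldh1a1* was named as a member of the retinoic acid list.

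Of the members of 34 gene lists, 0 passed the adjusted test. The pooled medians lay between −0.10 (heart tube markers) and 0.07 (liver and gut markers), against −0.00 over all genes, except for −0.44 over 4 sex chromosome genes. Of 30 measured AHF progenitor genes, 0 were higher and 4 lower at an unadjusted p under 0.05, *Fgf10*, *Tbx1*, *Sema3c* and *Tlx1*, where 160 and 215 of 19938 genes were in all. *Tbx1* was itself deleted in *Tbx1 LOF* and rescue, and *Tbx1* and *Tlx1* differed by 0.08 and 0.10 in *β-cat LOF*. The sign was the same in all 3 experiments in 3 of the 30 members (10.0%), against 21.4% of all genes. The median of the list was −0.07 in *Tbx1 LOF*, 0.06 in *β-cat LOF* and −0.05 in rescue. Of 20 FGF genes 1 was higher (*Fgfr3*, a receptor, 0.16) and 3 were lower (*Fgf9*, *Fgf10* and *Etv1*). The list median was −0.08 in *Tbx1 LOF*, 0.12 in *β-cat LOF* and −0.08 in rescue, and 4 of the 20 (20%) kept their sign. In *β-cat LOF*, *Fgf10* differed by −0.04 and *Fgf9* had a mean of 8.35, against 8.32 in controls. *Etv1*, a gene of chromosome 12, differed by −0.02 in rescue. Of the stress responses, p53 targets and apoptosis had 2 of 23 members lower (*Perp* and *Rrm2b*), the response to DNA double-strand breaks had 0 of 22 lower or higher, and the interferon response had 2 of 20 higher (*Ifit3*, 0.08, and *Mx1*, 0.07). The medians of these lists were −0.02, −0.02 and 0.02, against −0.00 over all genes. *Ifit3* and *Mx1* ranked low by mean value, at percentiles 19.7 and 6.30.

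**Figure D3:**
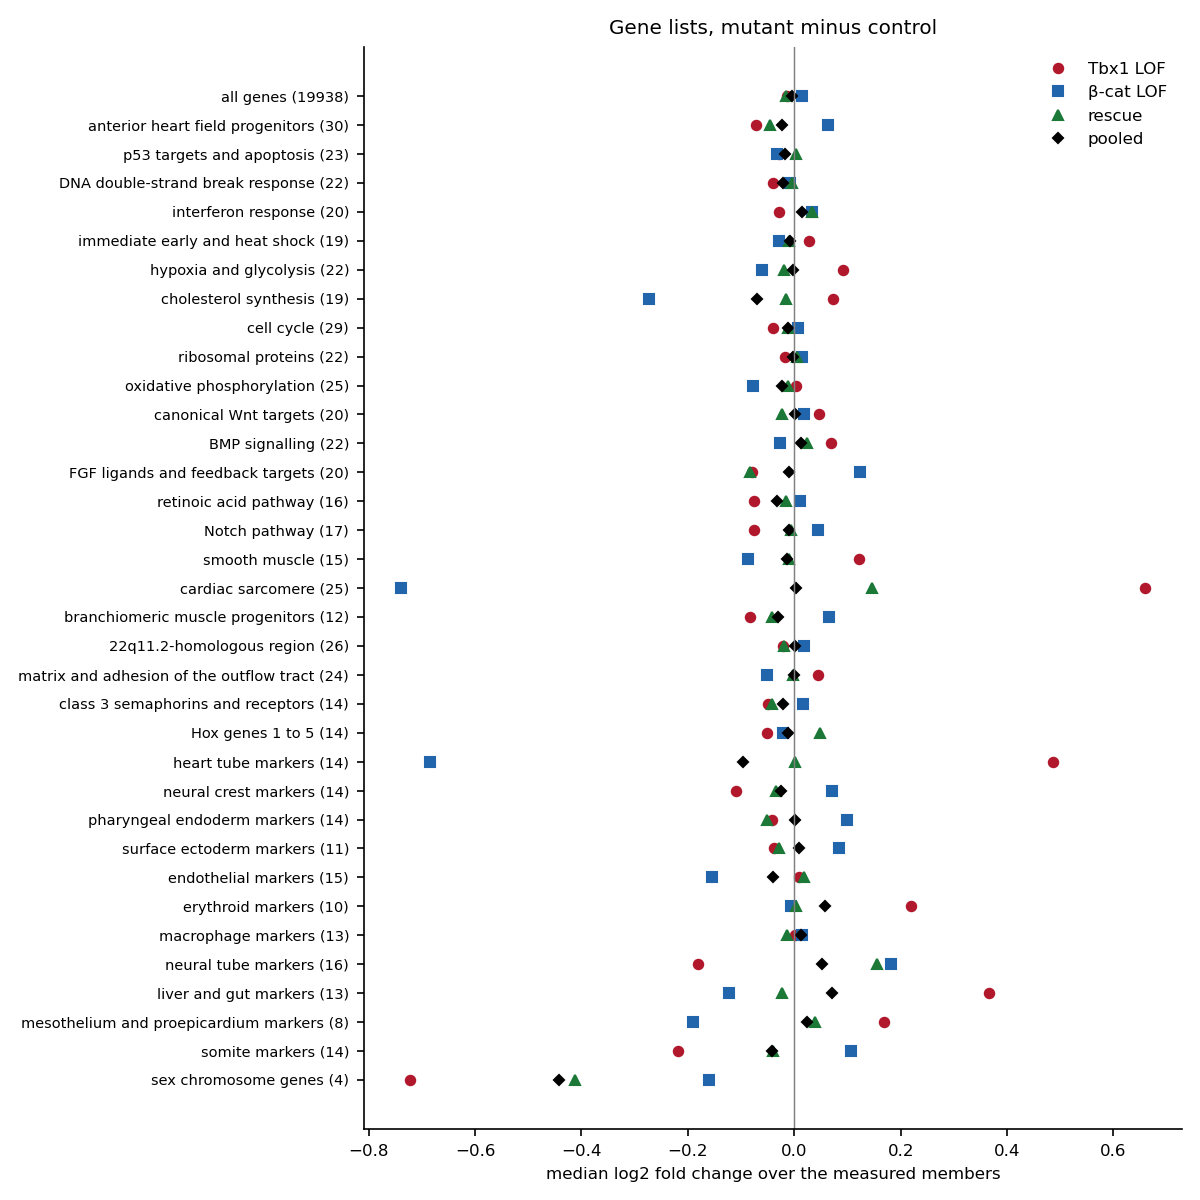
Median log2 fold change, mutant minus control (x axis), of the measured members of 34 gene lists and of all genes, with the number measured in brackets and a symbol for each experiment and for the pooled fit. Cardiac sarcomere genes lay at 0.66 in *Tbx1 LOF*, −0.74 in *β-cat LOF* and 0.15 in rescue, and near 0 when pooled.

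The pooling of opposite changes was plainest in heart muscle. Of 25 measured sarcomere genes, 0 had the same sign in all 3 experiments, and the median was 0.66 in *Tbx1 LOF*, −0.74 in *β-cat LOF*, 0.15 in rescue and 0.00 when pooled. The 14 heart tube markers had medians of 0.49, −0.68 and 0.00 in the 3 experiments. Sarcomere genes (*Myl2*, *Myl3*, *Myh6* and *Myh7*) are among them, so the 2 lists are not separate evidence. The mean of the markers relative to all arrays was 0.01, −0.25, −0.18 and −0.40 on *β-cat LOF* arrays, against 0.52, 1.91, 0.20 and 0.11 on their controls. Control 2 stood far above the others, also in the sarcomere genes (1.89, against 0.09 to 0.69 on the other controls). Without it, a step added after the data were seen, the medians in *β-cat LOF* were −0.42 for the sarcomere genes, with 23 of 25 below 0, and −0.34 for the heart tube markers, with 10 of 14 below 0. At an adjusted p under 0.05, 0 of 19938 genes differed in the mutant effect between experiments, and 930 (4.66%) did so at an unadjusted p under 0.05. Leaving out *β-cat* control 4 gave 82 genes, *Tbx1 LOF* replicate 2 gave 17 and *Tbx1 LOF* replicate 3 gave 1. *Tecrl*, which encodes an endoplasmic reticulum protein of heart muscle, had the smallest p and read 10.69, 10.40, 10.89 and 10.71 in *Tbx1 LOF*, against 9.79, 10.00, 10.12 and 9.58. In *β-cat LOF* it read 9.68, 9.31, 9.08 and 8.27, against 10.48, 11.09, 10.33 and 9.42, and in rescue 10.00, 10.39, 10.36 and 10.20, against 9.92, 9.60, 9.72 and 9.96. Its log2 fold changes were 0.80, −1.24 and 0.44, and the test of their difference had an adjusted p of 0.131 in limma. *Ecm1*, *Cck* and *Bves* differed in the same directions, while *Prkcb* was lower in *Tbx1 LOF* (−0.52) and rescue (−0.35) and 0.14 in *β-cat LOF*, and *Exoc3l4* differed by −0.22, −0.12 and 0.23 in that order.

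Without the *β-cat* experiment, 8 *Tbx1*-deleted and 8 control arrays gave 9 genes that passed the adjusted test, 2 of them higher and 7 lower. They were *Aqp7* and *Tecrl*, and *Tbx1*, *Gfra1*, a receptor for GDNF, *Mmp9*, a matrix protease, *Nrg1*, a ligand of ErbB receptors, *Prkcb*, a protein kinase C, *Scn3a*, a sodium channel, and *Etv2*. *Gfra1* differed by −0.43, *Mmp9* by −0.36 and *Nrg1* by −0.30, and in *β-cat LOF* the 3 differed by 0.14, 0.10 and 0.09. *Gfra1*, *Mmp9*, *Nrg1* and *Scn3a* were named after their values were seen.

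Genes at an unadjusted p under 0.05 between all mutants and all controls were more frequent on chromosome 12, a pattern noticed after the values were seen. Of its 652 measured genes, 0 passed the adjusted test and 36 (5.52%) were at an unadjusted p under 0.05, against 1.88% of all genes. The other autosomes and X had between 0.851% (chromosome 18) and 2.96% (chromosome 19). If no gene differed, a fraction of 0.05 would be expected at that p. The share on chromosome 12 was thus near that fraction, and the share of all genes was below it. Of the 36, 20 were higher and 16 lower, and 31 (86.1%) had the same sign in all 3 experiments, near the 82.9% (311 of 375) of all genes at that p. The share was 8.74% in *Tbx1 LOF*, 6.60% in *β-cat LOF* and 2.76% in rescue, where 4.12%, 5.72% and 1.27% of all genes were. By order along the chromosome, 27 of the 36 lay among the first 326 genes. In windows of 50 neighbouring measured genes, the window from *Ddx1* to *Adi1* held 11, the highest of 385 windows. Within the experiments 7 of its genes were at that p in *Tbx1 LOF*, 6 in *β-cat LOF* and 0 in rescue. The next was a later window of the same chromosome with 6, from *Tcl1b3* to *Mir494*, which holds the imprinted *Dlk1* and *Meg3* region and had 2, 2 and 6 in the same order, and windows of other chromosomes held at most 4. The 6 were *Dlk1*, *Meg3*, *Mir665*, *Mir434*, *DQ267102* and *Mir379*, at places 528 to 544 of the gene order. *Mir434* and *Mir379* had low mean values, 4.92 and 4.74.

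**Figure D4:**
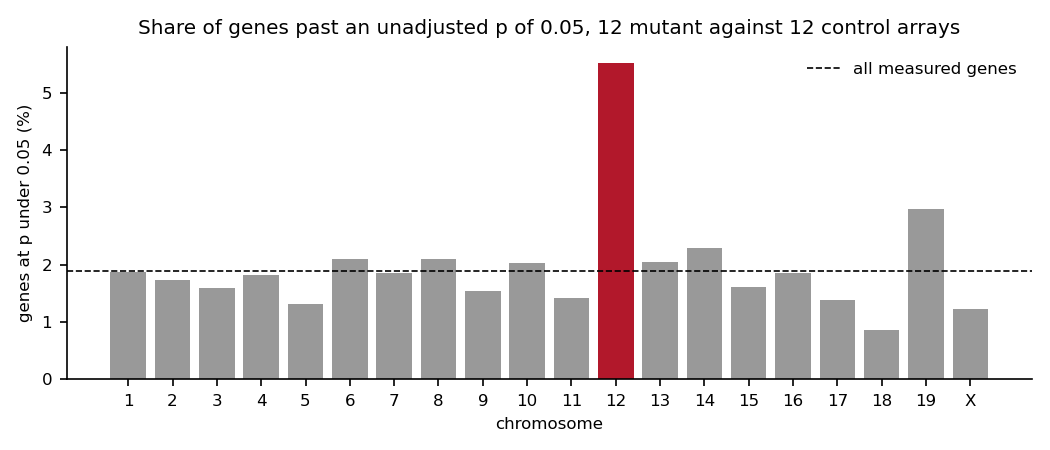
Share of measured genes past an unadjusted p of 0.05 in the comparison of 12 mutant with 12 control arrays (y axis, percent) for each chromosome (x axis), with the share over all genes dashed. Chromosome 12 stood at 5.52% and the others at 2.96% or less.

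*Gm4983* had the smallest p of genes lower in mutants. It read 9.12, 9.05, 8.95 and 8.97 in *Tbx1 LOF*, against 9.41, 9.26, 9.18 and 9.26, and 9.27, 9.19, 9.18 and 9.04 in *β-cat LOF*, against 9.51, 9.37, 9.52 and 9.32. These groups did not overlap, and in rescue 9.23, 9.18, 9.07 and 9.08 overlapped 9.39, 9.26, 9.17 and 9.23. The pooled log2 fold change was −0.21 (SE 0.04; limma, adjusted p = 0.127), and both probe sets of the gene had lower values. It passed with a block for replicates 1 and 2 and for 3 and 4 within each experiment (adjusted p = 0.0264), with same-numbered arrays as a replicate block (adjusted p = 0.0298) and with quantile normalization (adjusted p = 0.0358). Within the same window *2410018L13Rik* differed by 0.50 (SE 0.13) and *3110053B16Rik* by 0.27 (SE 0.06). Further along, *Eapp*, which encodes a protein that binds E2F factors, differed by 0.33 (SE 0.08) and *Vcpkmt*, a lysine methyltransferase, by −0.29 (SE 0.09). In rescue the values of *Eapp*, *Vcpkmt* and *3110053B16Rik* were 0.11, −0.09 and 0.09, and those in *Tbx1 LOF* 0.52, −0.39 and 0.39. Neighbouring genes thus differed in opposite directions. *Vcpkmt* was named after its values were seen. By the methods, mice with Cre and a *Tbx1* allele and the *Tbx1* f/f line were congenic in Swiss Webster, *β-catenin* f/f mice had a mixed background of Swiss Webster and C57Bl/6, and the doubly floxed females of the rescue crosses came from an inbred line of that mixed origin. Neither the site of the Cre transgene nor the strain from which each allele first came was found in those sources, and DNA linked to the transgene cannot be told apart from the genotype.

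**Figure D5:**
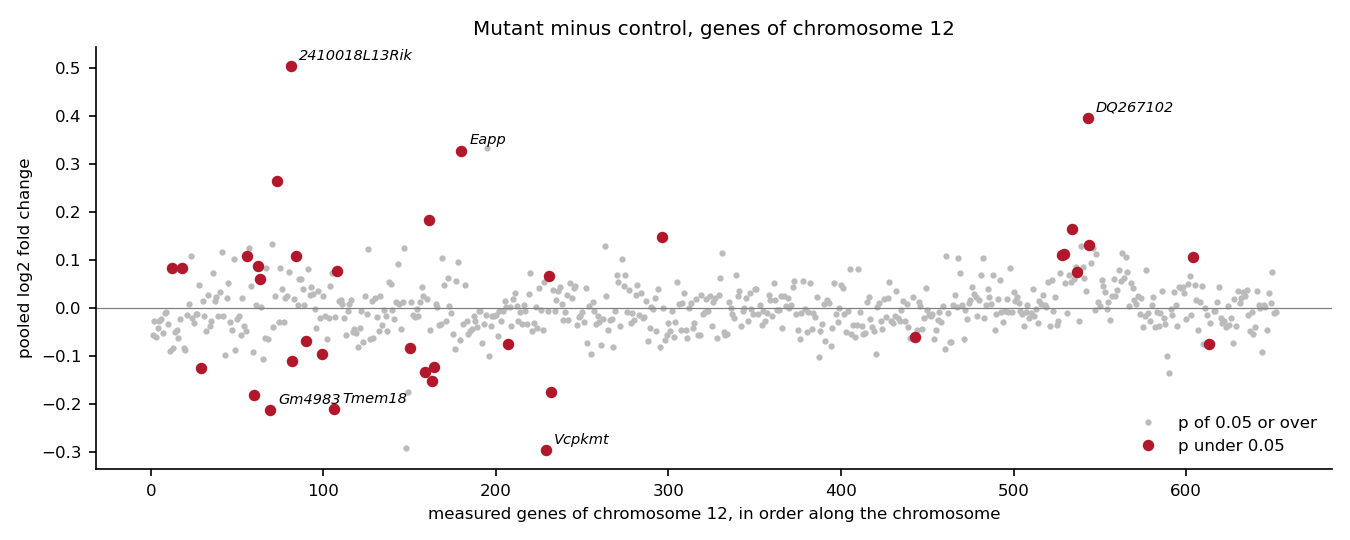
Pooled log2 fold change, mutant minus control (y axis), of the 652 measured genes of chromosome 12 in their order along it (x axis), with genes at an unadjusted p under 0.05 in red. The red points lie on both sides of 0, and 27 of 36 are among the first 326 genes.

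*Mir203* also lies on chromosome 12 and differed by 0.11 (SE 0.03). Its mature forms are shown to say which microRNA the label names, with the seed, bases 2 to 8, in capitals, as RefSeq gives them in GRCm38.p6.
mmu-miR-203-5p: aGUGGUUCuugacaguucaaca
mmu-miR-203-3p: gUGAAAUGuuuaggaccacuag
The arrays do not separate these forms from their precursor.

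Y-linked genes, which follow the share of male embryos in a pool, were also compared. *Eif2s3y* lay between 7.64 and 10.41 (median 8.96) in mutants and between 8.31 and 10.21 (median 9.56) in controls. It differed by −0.54 (SE 0.27; limma, unadjusted p = 0.0590), and the Y-linked *Kdm5d* and *Uty* by −0.35 and −0.55, while *Xist* differed by 0.01. That mean hides a wide spread. *Xist* read 6.52 on *Tbx1 LOF* replicate 2, 6.53 on rescue replicate 1 and 6.59 on rescue control 1, against 9.98 to 12.43 on the other arrays. The 3 Y-linked genes had lower means in the mutants of all 3 experiments, with ranges that overlapped, and their part in the other results was not tested.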

How the data were processed

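The authors made the deposited log2 values with RMA in the oligo package (background correction, quantile normalization, gene-level summarization). The sources used here name no version or genome build, nor the batch of each array. The methods add ComBat, and whether it is in the values is not stated. Replicates 1 and 2 against 3 and 4 differed in 3656 genes in the *Tbx1* experiment, 447 in the *β-cat* and 0 in the rescue experiment (limma, adjusted p under 0.05). The table had 35556 probe sets. Those that named 1 gene (21789) entered, those that named several (1621) or none (12146) did not, and averaging gave 19938 genes, 19856 of them matched to RefSeq. Values ran from 3.62 to 14.56, array medians from 8.00 to 8.14. The number of arrays limits the precision, and whether arrays of a group came from separate litters is not stated.

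Mutants and controls were compared in limma 3.58.1 (R 4.3.3) with experiment as a block (20 residual degrees of freedom) and, for each experiment and for differences between them, with 6 group means (18). P-values were adjusted by Benjamini-Hochberg over all genes at 0.05. The fit was tested on simulated data. Exact permutation tests were two-sided, in Python 3.11.15, and figures were drawn in matplotlib 3.10.9. The study's threshold was p under 0.05 without adjustment at a fold change above 1.5. Named genes were up to 12 each way at an adjusted p under 0.05 with the same sign in all 3 experiments, filled by smallest p among genes of the same sign, any gene at p under 0.05 in all 3, the 6 with the smallest p of the difference, *Tbx1*, *Ctnnb1*, *Mef2c* and list members. Members and lists were chosen with earlier results of these data known. The alternatives changed scaling, block, variance model, array weights, probe sets, filter, threshold, arrays and experiments.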

Additional observations from a re-analysis of the deposited data

Results flagged for a closer look

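In 7 probe sets outside the gene table, mutants were lower than controls when all 35556 probe sets were fitted, a step added after the data were seen (limma, adjusted p under 0.05). Probe set 10394812 differed by −0.32 and had the smallest p of all probe sets (limma, adjusted p = 0.0260). Its mutant arrays lay below all of their own controls in each of the 3 experiments. They read at most 10.01, against at least 10.08, in *Tbx1 LOF*, 10.10 against 10.16 in *β-cat LOF* and 10.05 against 10.06 in rescue. How many probe sets did so was not counted. Probe set 10394926 differed by −0.19. Probe sets 10394809 and 10394816 held identical values and differed by −0.39. Probe sets 10394798, 10399575 and 10394837 differed by −0.38, −0.40 and −0.19. Of these, 10394798 and 10399575 carried no gene symbol and the others 2 to 7, all of genes on chromosome 12. Probe set 10399575 lay between 9.20 and 9.71 on all mutant arrays and between 9.45 and 10.1 on control arrays.

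In 6 of 198 groups of 4 arrays, 1 array stood far from the other 3 for a named gene, where chance gives about 1 in 20. *3110053B16Rik* read 8.57 on *β-cat* control 4, against 8.06 to 8.11 on the others. *Olfr1251* read 4.94 on *Tbx1 LOF* replicate 2, against 4.78 to 4.80. *Etv2* read 8.92 on rescue replicate 2, against 8.73 to 8.76, and *Mef2c* read 10.78 there, against 10.52 to 10.56. *Barhl2* read 8.68 on rescue control 4, against 8.88 to 8.90. *Ecm1* read 9.27 on *Tbx1* control 3, against 8.98 to 9.01.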

How the results depend on the processing

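The count of genes higher in mutants (1, *Aqp7*) became 0 with quantile normalization, with the replicate block, with the study's p and fold change, and without the *Tbx1* or the rescue experiment, became 2 without the *β-cat* experiment, and was 0 to 1 with single arrays left out. The count of genes lower (0) became 1 with quantile normalization, the replicate block, the block of replicates 1 and 2 and of 3 and 4, and array weights, 7 without the *β-cat* experiment and 7 over all probe sets, and was 0 to 1 with single arrays left out. Genes at p under 0.05 with the same sign in all 3 experiments (1) numbered 2 with quantile normalization, 3 with the replicate block, 3 with the block of replicates 1 and 2 and of 3 and 4, 5 with array weights, 0 with each experiment fitted on its own, and 0 to 3 with single arrays left out. Genes that differed between experiments (0) numbered 2 with the replicate block, 13 with the block of replicates 1 and 2 and of 3 and 4 and 0 to 82 with single arrays left out. The count on chromosome 12 (36, a share 2.94 times that of all genes) was 56 with array weights, where all genes numbered 958 and the ratio fell to 1.79, 22 without the rescue experiment, with a ratio of 1.89, and 30 to 49 with single arrays left out. *Mef2c* lay between −0.0047 (without *β-cat* control 4) and 0.049 (without *β-cat* control 2) with single arrays left out, and was also below 0 without rescue replicate 2 (−0.00060) and without the *Tbx1* experiment (−0.025). The cause of these changes was not tested. Same-numbered arrays correlated by −0.0638 to 0.494 in their deviations, and 4 of 12 pairs were under 0.1, so that the numbers were not taken to pair arrays. *Gm4983* passed with the replicate block (adjusted p = 0.0298). Over all settings, the log2 fold changes of named genes kept side of the threshold and direction 970 times and lost the call 13 times. They gained the call 7 times and changed direction 3 times (*Mef2c*). Only *Aqp7* had a call to lose, so all 13 losses were its own, and the count of 970 says little about stability.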
